A study of Rattus norvegicus with 24 samples.

Results

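Tibialis anterior muscles of rats after 30 days of daily resistance training were compared with those after 2 days of the same training, across all transcripts. The comparison holds 6 of the 24 muscles of the study, 3 trained left muscles at each time, chosen by their labels and by no measured value, and no contralateral muscle enters it. The study used Wistar rats, male by its methods. The dorsiflexors of the left leg were made to contract against load once a day by a pulse generator implanted in the abdomen that stimulated the common peroneal and tibial nerves. The right muscle of the same rat was not stimulated and served as the contralateral control. RNA was taken shortly after the last session and enriched for poly(A) mRNA, at 2, 10, 20 and 30 days with 3 rats each. All 6 muscles of the comparison therefore carried a recent bout of exercise, and the groups differed in the number of bouts that came before it. Each time point used different rats, so no rat was followed through training. The implant drives all fibres of the muscle at once by electrical pulses, which limits the groups as a model of voluntary exercise, and the other tissue of a whole muscle (vessels, connective tissue, nerve) was sequenced with the fibres.

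A bout of loaded contraction in muscle that is not used to it is known to switch on immediate early transcription factors, mechanical stress genes of the sarcomere and Z-disc, small heat shock proteins and genes for making ribosomes. Repeated training is known to blunt this response and to move fibres from the fast glycolytic toward a more oxidative type. Fast fibres differ in the myosin heavy chain they hold, and oxidative capacity rests on mitochondria, whose respiratory chain is built from a few subunits of the mitochondrial genome and many of the nuclear genome.

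Levels below are values of the authors that hold 1 total per muscle. They were taken to be TPM-type (reads per transcript, corrected for transcript length), and the correction for length was not checked. These levels were divided here by a median-of-ratios factor per muscle and are called rescaled TPM. Sequencing depth cannot be read from them. A log2 fold change is the mean at 30 days minus the mean at 2 days on the log2(value + 1) scale, which understates the change of low transcripts, and it is given with its standard error (SE). A transcript was called when its Benjamini-Hochberg adjusted p from limma, over 13452 tested transcripts, was under 0.05. Nothing in the labels says more of the replicates than that they are separate rats, and n is 3 in each group. Among the libraries, mRNAs of the mitochondrial genome made up 24.9% to 28.5% of the deposited values in the 2-day trained muscles and 39.9% to 43.9% in the 30-day trained muscles. The contralateral muscles held 27.8% to 31.7% at 2 days and 29.7% to 43.7% at 30 days, where replicate 1 stood apart from the others. Where the values were used as deposited, a scale on which a larger share of one class lowers all else, the median log2 fold change of all transcripts was -0.26 in place of -0.01, and 7.79% of the calls were higher in place of 46.4%. Every direction below is thus relative to the bulk of transcripts, and the counts as deposited are given with the lists. Of the 6 markers fixed for skeletal muscle, 1 (Mb) was called higher and none lower, 3 were lower as deposited, and the list summed to 52363 to 55073 at 2 days and 50280.2 to 59106 at 30 days. Of its members not called, Acta1 was at 29091 and 24568 rescaled TPM and Ckm at 12476 and 11420.5, as means at 2 and 30 days. In such whole muscle samples fewer cells of a type and less RNA per cell cannot be told apart.

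Between 2 and 30 days, 1533 of the 13452 transcripts were called, 11.4% of those tested. At 30 days 712 were higher (5.29%) and 821 lower (6.1%). The falls reached further than the rises. Of the called transcripts, 201 fell and 127 rose by more than 1 on the log2 scale. In 1447 of the called transcripts the 3 muscles of one time did not overlap those of the other, where 13.6% of all tested transcripts lay apart with 30 days higher and 14.8% with 30 days lower. Counted with 1 transcript a gene, 660 of 11098 genes were higher (5.95%) and 740 lower (6.67%), and the lists below are read against these shares. Cyhr1 and Igtp, named after their values were seen, each had 1 transcript called higher and 1 called lower. The number of calls depended on single muscles. It was 614 without replicate 2 of the 2-day muscles, 910 without replicate 3 of the 2-day muscles and 987 without replicate 3 of the 30-day muscles. Group means of the times between lay between those of 2 and 30 days for 88.8% (10 days) and 85.4% (20 days) of the transcripts called higher, and for 87.2% and 79.7% of those called lower. For the median called-higher transcript, a fraction of 0.427 of the rise was in place at 10 days and 0.728 at 20 days, and for the median called-lower transcript 0.442 and 0.747 of the fall. These positions use the same 2- and 30-day values as the calls and are a description.

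**Figure D1:**
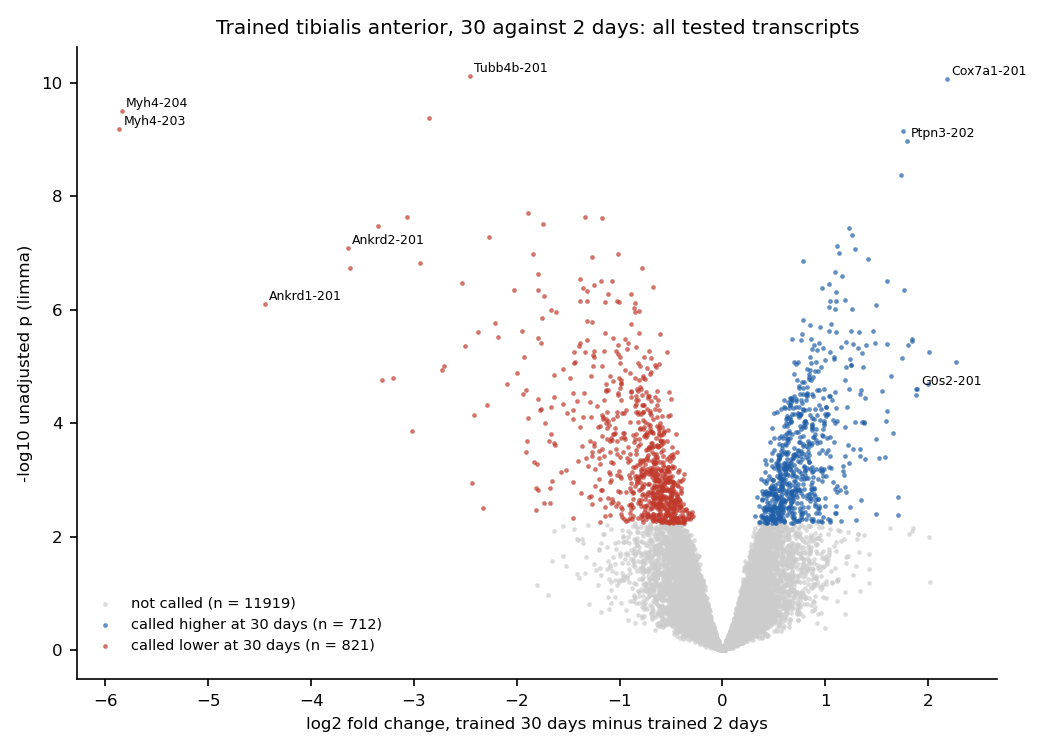
Log2 fold change (x axis, 30 minus 2 days) against -log10 of the unadjusted limma p (y axis) for the 13452 tested transcripts in 3 trained muscles at each time. The 712 transcripts called higher are blue, the 821 called lower are red, and the lower side reaches to -5.87 while the upper side ends at 2.27, at Mcpt1l1.

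The largest fall of a single transcript was in fast myosin heavy chain. Transcript Myh4-203 (ENSRNOT00000045718, Rnor_6.0 chr10:53778662-53801603, plus strand) carries the symbol of the chain of the fastest, least oxidative fibres. It stood at 6378, 3443 and 3200.5 rescaled TPM in the 2-day muscles and at 31.4, 36.6 and 289 in the 30-day muscles. The groups did not overlap, with replicate 3 the highest of the 30-day muscles and replicate 1 the highest at 2 days (log2 fold change -5.87, SE 0.58, adjusted p = 1.56e-06). The overlapping transcript Myh4-204 fell with it, from 2853, 1559 and 1554 to 14.5, 16.4 and 135 (log2 fold change -5.84, SE 0.55, adjusted p = 1.39e-06). The contralateral muscles of the same rats held Myh4-203 at a mean of 6891 at 2 days and 5436 at 30 days. The drop was already there at 10 days, when the trained mean was 355, and the 20-day mean was 98.8.

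The table gives the symbol Myh4 to 6 transcripts spread over neighbouring positions of chromosome 10, and no symbol Myh1 or Myh2 is among its rows. RefSeq places Myh2, Myh1 and Myh4 side by side there, so which chain each of these transcripts codes was not settled, and reads of such near-identical copies can be split between them. Upstream of Myh4-203, transcript Myh4-202 (chr10:53740841-53764610) had the highest mean of the 6 at both times. Its levels were 5871, 6128 and 6835 at 2 days and 10412, 9357 and 10332 at 30 days, which do not overlap but did not pass the test (log2 fold change 0.68, SE 0.25, adjusted p = 0.0861). In the contralateral muscles this transcript was also higher at 30 days than at 2 days, with means of 6631 and 3728, and was likewise not called (adjusted p = 0.0711). Transcript Myh4-201 was at 852, 748 and 995 and then 984, 1069 and 1105, where the groups overlapped. Summed over the 6 transcripts, the symbol gave 12078 to 16087 at 2 days and 10643 to 12029.7 at 30 days (log2 fold change -0.25, SE 0.12, adjusted p = 0.155). Of the other heavy chains, the slow chain Myh7 (136, 75.4 and 141, then 142, 209 and 98.4), the embryonic chain Myh3 and the neonatal chain Myh8 were not called, with log2 fold changes of 0.34, -0.67 and 0.69.

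Transcripts of Tnnt3, the fast troponin T that ties troponin to the thin filament, also differed among themselves. Here they belong to 1 gene, whereas Myh4-201, Myh4-202 and Myh4-203 lie at positions that do not overlap. Transcript Tnnt3-206 fell from 701, 588 and 728 to 43.5, 93.6 and 254, with no overlap. Tnnt3-201 fell likewise, from a range of 338 to 424 at 2 days to one of 23 to 150.3 at 30 days. The log2 fold changes of Tnnt3-206 and Tnnt3-201 were -2.71 and -2.73, with adjusted p of 0.00079 and 0.00088. The 6 transcripts overlap along the whole gene (Rnor_6.0 chr1:215666628-215683628). The other 4 were higher in all 3 muscles at 30 days than in any at 2 days but were not called, and the sum per gene was 8689 to 10097 at 2 days and 9758 to 11515 at 30 days. Their overlap in position leaves the split of reads between them to the authors' quantification. Tnnt3 transcripts were named after their values were seen.

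**Figure D2:**
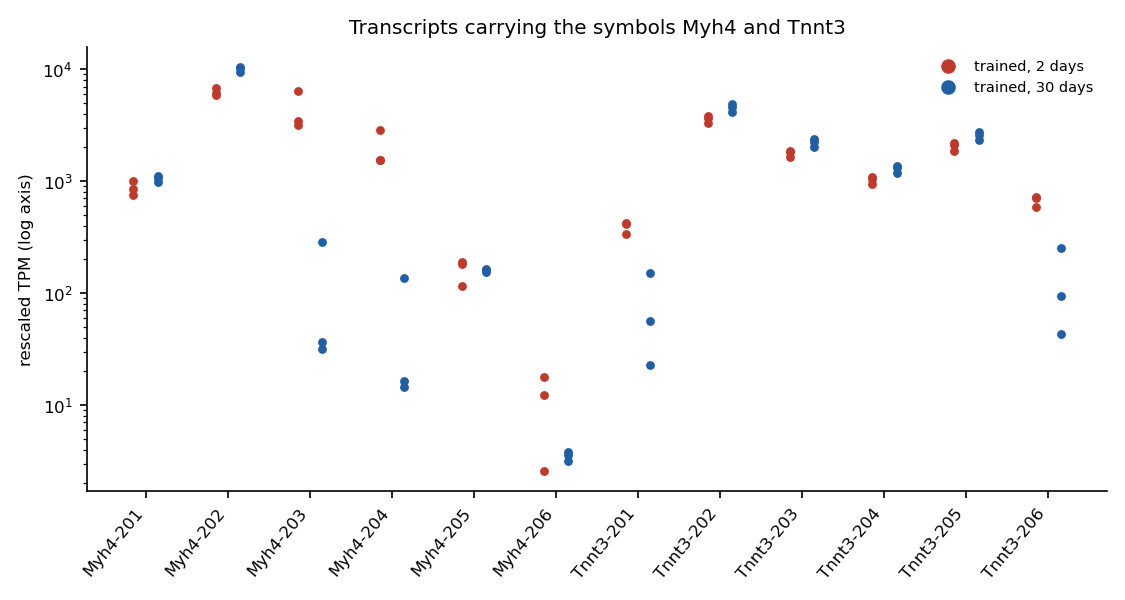
Rescaled TPM (log axis) of the 12 transcripts that carry the symbols Myh4 and Tnnt3, 1 point a muscle, 2 days in red and 30 days in blue. Myh4-203, Myh4-204, Tnnt3-201 and Tnnt3-206 are lower in all 3 muscles at 30 days, while all 30-day points are higher in Myh4-202 and, by less, in Tnnt3-202, Tnnt3-203, Tnnt3-204 and Tnnt3-205, none of them called. The points of both times overlap in Myh4-201, Myh4-205 and the sparse Myh4-206.

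Some other genes of fast fibres were lower as well. Of 15 fast fibre genes tested, 4 were lower (26.7%) and 1 higher (6.67%), with a median log2 fold change of -0.16 against -0.01 over all genes, and as deposited 8 were lower and none higher. In the contralateral muscles the median of this list between the same times was much the same, at -0.14. For the trained minus contralateral difference within each rat the median was -0.05, and 2 members were called lower. Pvalb, the calcium buffer parvalbumin of fast fibres, was at 1471, 1089 and 977 and then 356, 124 and 379, well apart (log2 fold change -2.18, SE 0.35, adjusted p = 4.51e-04). Its mean in the contralateral muscles was 2719 at 2 days and 2044 at 30 days. Actn3, the Z-disc actinin of fast fibres, and Mylk2, the kinase of the myosin light chain, fell by 1.44 and 1.18 on the log2 scale. Mybph, a myosin binding protein H, was at 176, 707 and 452 and then 15.3, 83 and 52.2 (log2 fold change -3.20, SE 0.59, adjusted p = 0.00113), with replicate 1 the lowest at both times. The member called higher was Gpd1, the cytosolic glycerol phosphate dehydrogenase, from 168, 53 and 74.1 to 207, 135 and 146 (log2 fold change 0.87, SE 0.28, adjusted p = 0.0454). Its groups overlapped, and leaving out any of 5 of the 6 muscles ended the call, with adjusted p of 0.055 to 0.32. The call held without replicate 1 of the 2-day muscles. Of 15 slow fibre genes none was higher and 2 were lower (13.3%), or 3 as deposited. The 2 were Ankrd2, which is a stretch response gene as well, and Casq2, the calsequestrin of slow and cardiac muscle, from 26.7, 36.9 and 49.4 to 15.8, 18.4 and 12.6. Casq2 lost its call without replicate 2 or 3 of the 2-day muscles (adjusted p = 0.0923 and 0.13) and without replicate 1 or 3 of the 30-day muscles (0.0582 and 0.108).

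Most genes of the mechanical stress list were lower after 30 days. Of 20 tested members, 14 were lower at 30 days, which is 70% where 6.67% of all genes were (16 as deposited), none was called higher, 6 were not called, and the median was -1.37. Of the 14, 10 kept their call whichever of the 6 muscles was left out. Ankrd1, a muscle ankyrin repeat protein that sits on titin and is induced by strain, was at 379, 2670.3 and 1641 in the 2-day muscles and 44.8, 56.1 and 60.1 in the 30-day muscles. The 2 groups lay far apart although the 2-day muscles differed among themselves (log2 fold change -4.45, SE 0.66, adjusted p = 1.78e-04). At 30 days it had not come down to the contralateral muscles, whose mean was 18.5, but that difference is not part of this test. Ankrd2, its relative, went from 57.9, 295 and 204 to 5.99, 16.7 and 13.9 (log2 fold change -3.64, SE 0.47, adjusted p = 5.57e-05). Otud1, a deubiquitinase, went from 186, 184 and 255 to 36.9, 80.4 and 17.8 (log2 fold change -2.42, SE 0.50, adjusted p = 0.00270), and its contralateral mean at 30 days was 1.75. The small heat shock protein Hspb1 was at 536, 1476 and 975 and then 231, 367 and 161 (log2 fold change -1.94, SE 0.37, adjusted p = 0.00168). Flnc, the filamin of the Z-disc, and Cryab, the crystallin that guards desmin and titin, fell by 1.73 and 1.76. Ehd4, a membrane trafficking ATPase, was at 6.69, 15.5 and 11.3 and then 6.47, 6.35 and 7.24 (log2 fold change -0.59, SE 0.19, adjusted p = 0.0469). Its groups overlapped, and it kept its call only without replicate 1 of the 2-day muscles, with adjusted p of 0.0771 to 0.338 in the other 5 fits.

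The other genes of largest fall were of mixed function. The tubulins Tubb6 and Tubb4b fell by 3.06 and 2.46 on the log2 scale, and Tubb4b was the tightest, at 210.1, 266 and 247 and then 41.5, 44.6 and 42.4 (log2 fold change -2.46, SE 0.22, adjusted p = 5.74e-07). Rrad, a small GTPase that restrains calcium channels, went from 30.3, 102 and 76.3 to 5.01, 4.35 and 6.29 (log2 fold change -3.35, SE 0.41, adjusted p = 3.21e-05). Pvr, a nectin-like adhesion receptor, Rnh1, the ribonuclease inhibitor, and RGD1564664 (C3h11orf96 in RefSeq) fell by 2.53, 2.50 and 3.62. In each of Ankrd1, Ankrd2, Rrad, Tubb6, Ccn1, Pvr, Rnh1, Mybph and RGD1564664, the lowest of the 2-day muscles was replicate 1 and the highest replicate 2. LOC108348108, also among the genes of largest fall, was at 130.3, 157 and 63.2 and then 44.1, 23.3 and 6.65 (log2 fold change -2.44, SE 0.65, adjusted p = 0.0170). It lost its call without replicate 2 of the 2-day muscles (adjusted p = 0.1) or replicate 3 of the 30-day muscles (0.128).

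**Figure D3:**
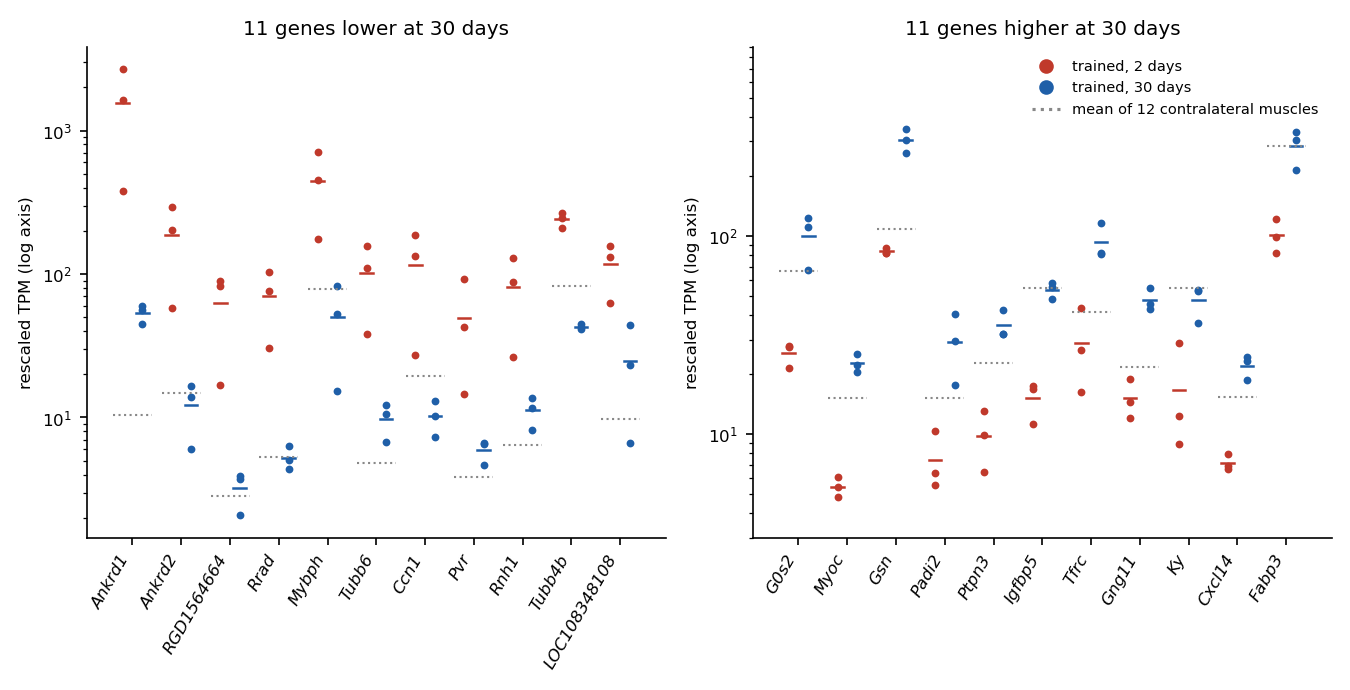
Rescaled TPM (log axis) of 11 genes of largest fall (left) and 11 of largest rise (right) among called genes with a group mean of at least 20 and groups that do not overlap, 1 point a trained muscle, bars at the means, and a dotted line at the mean of the 12 contralateral muscles. At 30 days Ankrd1 is still above the dotted line and Tubb4b is below it.

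Immediate early transcription factors, which are made within minutes to hours of a stimulus, also stood lower after the later bout. Of 25 tested, 11 were lower (44%, and 16 as deposited) and none higher, the median was -0.89, and 7 kept their call whichever muscle was left out. In the contralateral muscles the median of this list between the same times was -0.36. For the trained minus contralateral difference within each rat the median was -0.43, and no member was called. Jund, a JUN family member, was at 64.3, 93 and 103 and then 24.3, 26.8 and 14.9 (log2 fold change -1.95, SE 0.31, adjusted p = 3.83e-04). Egr1, a zinc finger factor, was at 156, 98.3 and 165 and then 33.4, 63.5 and 49.1 (log2 fold change -1.51, SE 0.31, adjusted p = 0.00262). Ier5, an early response gene, fell by 1.76. Fos went from 213, 129 and 265 to 46.1, 75.6 and 46.2 (log2 fold change -1.81, SE 0.50, adjusted p = 0.0193), but lost its call without replicate 3 of the 2-day muscles (adjusted p = 0.0891) or without replicate 1 or 3 of the 30-day muscles (0.0639 and 0.0732). Every trained muscle still held more Fos and Egr1 than any contralateral muscle of the same 6 rats, whose highest values were 23 and 6.70. Atf3, a stress-induced repressor, was at 315, 180.4 and 344 and then 94.5, 230.0 and 34.7, with overlapping groups, and was not called (log2 fold change -1.55, SE 0.63, adjusted p = 0.115). Myc, the growth factor-induced transcription factor that drives ribosome production, went from 9.66, 17.4 and 14.9 to 3.23, 5.93 and 4.25 with no overlap (log2 fold change -1.45, SE 0.25, adjusted p = 7.71e-04). Its partner Max, at 9.36, 11.4 and 11.3 and then 9.53, 9.99 and 8.35, overlapped and was not called (log2 fold change -0.18, SE 0.14, adjusted p = 0.435). Of the 15 genes of the Myc network tested, 3 were lower (20%), Myc, its antagonist Mxd1 and the E-box factor Usf1, and none was higher, with a median of -0.04 and 5 lower as deposited. Mxd1 (log2 fold change -0.64, SE 0.15, adjusted p = 0.00614) lost its call without replicate 2 of the 2-day muscles (adjusted p = 0.0699). Tcf3, a further E-box binder, was not called (log2 fold change -0.19). Usf1 (log2 fold change -0.64, SE 0.18, adjusted p = 0.0216) lost its call without replicate 2 or 3 of the 2-day muscles (adjusted p = 0.146 and 0.0844) and without replicate 2 or 3 of the 30-day muscles (0.068 and 0.126).

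Promoter sequences of RefSeq (assembly GRCr8) were matched by symbol to 8103 of the 11098 tested genes, and the 250 bases before the annotated start were searched on both strands for 3 motifs of the factors above. CACGTG, the E-box that MYC and MAX bind, was in 8.18% of the promoters of called-lower genes, 6.58% of called-higher genes and 8.49% of all tested genes. TGACTCA, the AP-1 site of FOS and JUN proteins, was in 4% of the called-lower, 3.61% of the called-higher and 3.02% of all. TGACGTCA, the cyclic AMP response element of CREB and ATF proteins, was in 4.18%, 2.55% and 2.89%. Of the 16 matched promoters of the immediate early list, 2 held the E-box (12.5%), none the AP-1 site and 4 the cyclic AMP response element (25%). These shares are descriptions without a test. CACGTG and TGACGTCA read the same on both strands, and no window can hold TGACTCA within TGACGTCA. Among the genes named by the rule of this report, 4 with such a match are printed to show where the letters lie relative to the start, which follows the last base, for 3 genes that fell and 1 that rose. Each run gives the 250 bases 5′ to 3′ on the strand of the gene, with the match in capitals, which for an AP-1 site on the other strand reads TGAGTCA. Jund (GRCr8 chr16:18769772-18770021, minus strand) and Rcan1 (chr11:45118237-45118486, minus strand) hold a cyclic AMP response element, and Rcan1 an AP-1 site as well. Atf4 (chr7:113684431-113684680, plus strand) holds an E-box, and Cxcl14 (chr17:8322900-8323149, plus strand) an AP-1 site.
Jund: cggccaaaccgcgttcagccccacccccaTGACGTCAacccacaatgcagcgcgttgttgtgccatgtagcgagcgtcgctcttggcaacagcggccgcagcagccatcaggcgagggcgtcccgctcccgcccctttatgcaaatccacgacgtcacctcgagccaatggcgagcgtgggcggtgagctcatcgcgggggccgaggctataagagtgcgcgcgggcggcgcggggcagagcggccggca
Rcan1: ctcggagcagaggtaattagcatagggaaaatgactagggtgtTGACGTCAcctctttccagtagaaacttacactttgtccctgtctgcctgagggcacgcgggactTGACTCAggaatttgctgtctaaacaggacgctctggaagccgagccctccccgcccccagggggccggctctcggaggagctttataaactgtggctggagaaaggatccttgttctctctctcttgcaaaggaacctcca
Atf4: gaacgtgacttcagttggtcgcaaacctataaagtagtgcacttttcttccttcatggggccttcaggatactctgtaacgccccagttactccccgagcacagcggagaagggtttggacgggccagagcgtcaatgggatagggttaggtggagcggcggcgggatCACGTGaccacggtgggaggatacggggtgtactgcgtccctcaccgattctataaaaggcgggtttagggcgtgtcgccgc
Cxcl14: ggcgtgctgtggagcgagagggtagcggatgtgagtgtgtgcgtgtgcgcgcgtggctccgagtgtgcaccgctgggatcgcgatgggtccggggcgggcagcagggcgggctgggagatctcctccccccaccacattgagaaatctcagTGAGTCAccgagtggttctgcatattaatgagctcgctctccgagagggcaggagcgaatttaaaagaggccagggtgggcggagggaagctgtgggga

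Rcan1, the calcineurin regulator, was at 173, 287 and 287 and then 108, 174 and 78, where 1 value of 30 days exceeds 1 of 2 days (log2 fold change -1.09, SE 0.29, adjusted p = 0.0155). Its call was lost without replicate 2 or 3 of the 2-day muscles (adjusted p = 0.0958 and 0.0743) or replicate 3 of the 30-day muscles (0.11). Atf4, the central factor of the integrated stress response, was at 259, 326 and 268 and then 181, 175 and 162 (log2 fold change -0.71, SE 0.12, adjusted p = 5.77e-04), while its contralateral means were 228 at 2 days and 247 at 30 days. Of the 15 tested genes of that response and of amino acid supply, 4 were lower (26.7%, and 9 as deposited) and none higher. Gdf15, a stress cytokine, fell by 1.45 from a low level of 3.69, 5.23 and 1.07.

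Genes of protein folding, protein making and protein breakdown were lower where they passed the test in the fit of all 24 muscles, with 1 exception among the chaperones. Of 28 heat shock and endoplasmic reticulum chaperones 12 were lower (42.9%) and 1 higher (3.57%), with a median of -0.43, and as deposited 18 were lower and none higher. Only 3 of the 12 kept their call whichever muscle was left out. Of 49 ribosome biogenesis genes, 12 were lower (24.5%) and none higher, the median was -0.21, and 5 kept their call. Rrp12, needed for export of the ribosomal subunits, was at 19.2, 26.5 and 21.1 and then 11.5, 12.3 and 11.6 (log2 fold change -0.85, SE 0.13, adjusted p = 1.74e-04). Of 79 cytoplasmic ribosomal protein genes, 10 were lower (12.7%) and none higher, with a median of -0.22, and 3 kept their call. Rpl10 was at 391, 395 and 371 and then 224, 246 and 239, fully apart (log2 fold change -0.70, SE 0.13, adjusted p = 0.00103). On the deposited scale 52 of the 79 ribosomal protein genes, 23 of the 49 biogenesis genes and 26 of 45 proteasome subunits were lower. On the rescaled values 8 of the 45 proteasome subunits were lower (17.8%) and none higher. Psmd11, a lid subunit of the proteasome, went from 32.7, 81.9 and 64 to 17.2, 19.1 and 16.1 (log2 fold change -1.62, SE 0.25, adjusted p = 2.14e-04), and its contralateral means were 13.5 at 2 days and 19.5 at 30 days. Of 20 aminoacyl-tRNA synthetases, which load amino acids onto tRNA, 3 were lower (15%, and 11 as deposited), none kept the call throughout, and none was higher. Of 22 ubiquitin ligase, FoxO and autophagy genes, 3 were lower (13.6%, and 9 as deposited) and none higher. In the fit of the 12 trained muscles alone, none of them was lower and 1 was higher. Trim55, a ligase of the sarcomere, led the falls, at 31.2, 45.7 and 42.3 and then 21.2, 26.7 and 25 (log2 fold change -0.68, SE 0.15, adjusted p = 0.00439). Fbxo32, a member not called, was at 28.3, 16.4 and 21.9 and then 63.5, 42.8 and 79.6, without overlap (log2 fold change 1.43, SE 0.57, adjusted p = 0.110).

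Of 22 tested genes of the cell cycle list, which holds growth arrest genes as well as genes of division, 12 were lower (54.5%, and 15 as deposited) and none higher, with a median of -0.53, and 4 kept their call whichever muscle was left out. Cdk1, the mitotic kinase, was at 1.22, 2.03 and 1.60 and then at 0.289, 0.490 and, in replicate 3, close to 0 (log2 fold change -1.06, SE 0.20, adjusted p = 0.00120). Gadd45a, a growth arrest gene that also marks denervated muscle, was at 25.4, 105 and 58.4 and then 6.43, 12.1 and 13.7 (log2 fold change -2.29, SE 0.46, adjusted p = 0.00219). Gadd45g went from 44, 49.9 and 50.1 to 11.6, 11.4 and 4.97 (log2 fold change -2.33, SE 0.70, adjusted p = 0.0328), and in the contralateral muscles its means were 83.1 at 2 days and 13.5 at 30 days. It kept its call in only 1 of the 6 fits that leave a muscle out, that without replicate 1 of the 2-day muscles, with adjusted p of 0.052 to 0.142 in the others. Those fits hold the contralateral muscles in their spread, and Gadd45g was at 44.3, 170 and 34.7 in the 2-day ones. Its adjusted p was 0.0054 in the fit of the 12 trained muscles alone and 0.0255 in that of the 6 compared muscles. The trained minus contralateral difference of Gadd45g within each rat changed by -0.09 and did not pass the test (adjusted p = 0.965). Of 10 acetylcholine receptor and denervation genes 3 were lower (30%, and 6 as deposited) and none higher. These were Gadd45a, the transcription factor Runx1 and the receptor subunit Chrnb1, at 25.3, 25.2 and 32.5 and then 14.7, 18.8 and 15.7 (log2 fold change -0.71, SE 0.17, adjusted p = 0.00635). Of 19 developmental and myogenic genes 2 were lower (10.5%, and 5 as deposited), Myog and Myf6, both of which drive muscle differentiation, and none was higher. Myog was at 4.99, 30.9 and 24.8 and then 3.60, 2.54 and 4.69, and lost its call without replicate 2 or 3 of the 2-day muscles (adjusted p = 0.0787 and 0.0525). Runx1 lost its call without replicate 2 of the 2-day muscles (adjusted p = 0.0506). The call of Myf6, from 123, 230.3 and 169 to 70.1, 91.5 and 63.1, was lost without replicate 2 or 3 of the 2-day muscles (0.141 and 0.0597) and without replicate 1 or 3 of the 30-day muscles (0.0583 and 0.0852).

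Transcripts of the respiratory chain rose. Of the 13 mRNAs of the mitochondrial genome 12 were higher (92.3%, against 5.95% of all genes), with a median of 1.00, and on the deposited scale 11 were higher. Mt-co1, a core subunit of cytochrome c oxidase, was at 26038, 24879.9 and 29512 and then 54461, 68698 and 68111 rescaled TPM (log2 fold change 1.25, SE 0.22, adjusted p = 6.84e-04). All 30-day values were above all 2-day values. In the contralateral muscles Mt-co1 was at 31118, 40444 and 36409 and then 68896, 42479 and 30924, so that the contralateral replicate 1 at 30 days matched the trained muscles. Only Mt-atp8 and Mt-nd4l of the 13 had larger log2 fold changes (1.37 and 1.34), and the member not called was Mt-nd6, at 2708, 3288 and 3074 and then 3746, 3558 and 4039 (log2 fold change 0.33, SE 0.26, adjusted p = 0.457). Mt-nd6 is the mRNA read from the other strand of the mitochondrial DNA. The difference between trained and contralateral muscle did not pass the test for any of the 13, with log2 values from 0.01 to 0.92 for its change between 2 and 30 days. Mt-nd5 (log2 fold change 0.82, SE 0.24, adjusted p = 0.0253) lost its call without replicate 2 or 3 of the 2-day muscles (adjusted p = 0.112 and 0.0594) or of the 30-day muscles (0.0553 and 0.0954).

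Of 78 nuclear genes for subunits of the same chain, 56 were higher (71.8%) and none lower, the median was 0.66, and 31 were higher and none lower on the deposited scale. The same number, 31, kept their call whichever muscle was left out. The called members span log2 fold changes from 0.41 to 2.19. Ndufb9, a complex I subunit, was at 401, 362 and 393 and then 689.6, 861 and 841 (log2 fold change 1.04, SE 0.17, adjusted p = 3.83e-04). Cox8b, the muscle form of a complex IV subunit, was at 504, 428 and 497 and then 1002, 1405 and 1023 (log2 fold change 1.25, SE 0.20, adjusted p = 3.83e-04). Atp5me, of ATP synthase, was at 90.7, 71.5 and 88.6 and then 146, 216 and 159.9 (log2 fold change 1.03, SE 0.20, adjusted p = 0.00175). Cox7a1 had the largest fold but a low level, at 0.421, 0.508 and 0.581 and then 3.42, 7.38 and 7.61 (log2 fold change 2.19, SE 0.19, adjusted p = 5.74e-07). In these 4 genes no 30-day muscle overlapped a 2-day muscle, and the median of the 78 in the contralateral muscles was -0.07.

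In each list of fuel genes more members were called higher than lower on the rescaled values. Only the fatty acid list kept that direction on the deposited scale. Of 29 genes of fatty acid uptake and oxidation 17 were higher (58.6%) and none lower, 11 kept their call whichever muscle was left out, and on the deposited scale 7 were higher and 1 lower. Fabp3, the fatty acid carrier of heart and oxidative muscle, was at 121, 81.8 and 99.2 and then 336, 305 and 216 (log2 fold change 1.49, SE 0.25, adjusted p = 4.98e-04). Its 30-day values were within the contralateral range of 197 to 501, below which all 2-day trained values lay. Hadh and Ech1, enzymes of beta-oxidation, rose by 1.00 and 0.89. Of 26 citric acid cycle and mitochondrial regulator genes 13 were higher (50%) and 1 lower (3.85%), but on the deposited scale 2 were higher and 3 lower. Of the 13, 4 kept their call whichever muscle was left out, and in the fit of the 12 trained muscles alone 3 members were called higher. Perm1, a regulator of mitochondrial genes in muscle, was at 64.7, 35.6 and 40.3 and then 111, 87.3 and 89.6 (log2 fold change 1.06, SE 0.17, adjusted p = 3.18e-04), and was higher on both scales. Of 25 genes of branched-chain amino acid breakdown 8 were higher (32%) and 1 lower (4%), against 1 and 3 on the deposited scale, and 3 of the 8 kept their call whichever muscle was left out. Mcee, an epimerase at the end of that route, was at 18, 16 and 18 and then 40.3, 42.5 and 33.8 (log2 fold change 1.12, SE 0.14, adjusted p = 5.57e-05). Of 34 glycolysis and glycogen enzymes 11 were higher (32.4%) and 3 lower (8.82%), which became 0 and 5 on the deposited scale, and none of the 11 kept its call whichever muscle was left out. Slc2a1, the basal glucose transporter, was at 2.04, 3.49 and 4.04 and then 0.484, 0.983 and 0.717 (log2 fold change -1.26, SE 0.21, adjusted p = 6.25e-04). Pygm, the muscle glycogen phosphorylase, was at 2965, 1978 and 2144 and then 2682, 2404 and 2644 and overlapped, and Phkg1, the catalytic subunit of its kinase, was not called either (log2 fold change 0.57, SE 0.20, adjusted p = 0.0632).

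**Figure D4:**
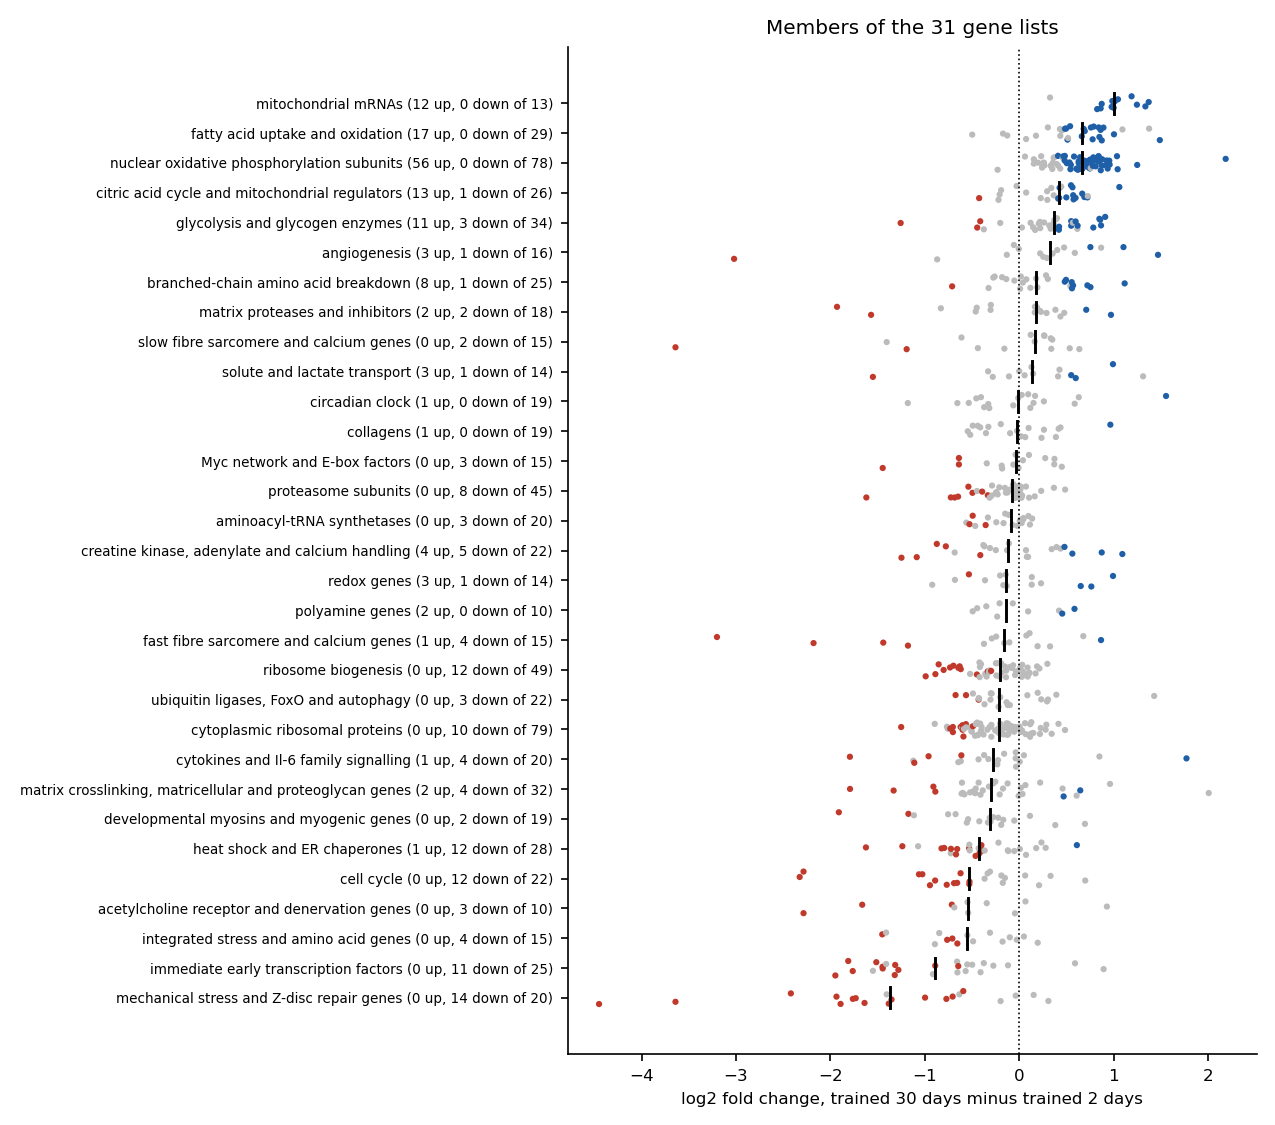
Log2 fold change (x axis, 30 minus 2 days) of each tested member of the 31 gene lists, with called-higher members in blue, called-lower in red and others in grey, a black bar at each list's median and a dotted line at the median of all genes. The medians run from -1.37 for mechanical stress genes to 1.00 for mitochondrial mRNAs. The counts of each list stand beside its name.

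Mb, the oxygen store myoglobin, was at 4529, 3962 and 4262 and then 11640.4, 10565 and 9105 (log2 fold change 1.29, SE 0.17, adjusted p = 5.57e-05). Ckmt2, the mitochondrial creatine kinase, was at 364, 281 and 387 and then 799.7, 747 and 643 (log2 fold change 1.09, SE 0.16, adjusted p = 2.01e-04). Ca3, the carbonic anhydrase of slow muscle, rose by 0.99. Among 14 redox genes, Gpx3, Sod2 and Cat were higher (21.4%) and the glutathione synthesis gene Gclc lower (7.14%), and on the deposited scale 2 were higher and 2 lower. Gclc (log2 fold change -0.53, SE 0.14, adjusted p = 0.0120) lost its call without replicate 2 of the 2-day muscles (adjusted p = 0.113) or replicate 1 of the 30-day muscles (0.0623). Among 14 transport genes, 3 were higher (21.4%) and 1 lower (7.14%), against 0 and 2 as deposited. The latter was Atp1b2, a beta subunit of the sodium pump, at 111, 54 and 71.9 and then 24.1, 21.4 and 30.7 (log2 fold change -1.55, SE 0.31, adjusted p = 0.00211). Of 22 creatine kinase, adenylate and calcium handling genes 4 were higher (18.2%) and 5 lower (22.7%), against 2 and 10 as deposited.

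Hmox1, the stress-induced haem oxygenase, was at 15.1, 20.2 and 14.4 and then 13.6, 19.4 and 11.4 (log2 fold change -0.17, SE 0.25, adjusted p = 0.725). Mef2c, a muscle transcription factor, was not called (log2 fold change -0.28, SE 0.12, adjusted p = 0.140). Nfatc3, a calcineurin target, was called higher (log2 fold change 0.48, SE 0.16, adjusted p = 0.0496) but lost the call without replicate 2 or 3 of the 2-day muscles (adjusted p = 0.231 and 0.128) or of the 30-day muscles (0.145 and 0.177). Of 10 polyamine genes, Amd1 and Oaz2 were called higher (20%) and none lower, a direction that turned to 0 higher and 3 lower as deposited. Amd1, which makes the aminopropyl donor, was at 17.6, 9.56 and 12.6 and then 19.1, 19.9 and 20.5 (log2 fold change 0.58, SE 0.16, adjusted p = 0.0181). It lost its call without replicate 2 or 3 of the 2-day muscles (adjusted p = 0.169 and 0.0606) or without replicate 2 or 3 of the 30-day muscles (0.0507 and 0.0639). Oaz2, an antizyme that restrains polyamine levels (log2 fold change 0.45, SE 0.13, adjusted p = 0.0220), lost it without replicate 2 of the 2-day muscles (0.122) or replicate 1 or 2 of the 30-day muscles (0.0524 and 0.076).

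The genes of largest rise were of mixed function. G0s2, an inhibitor of triglyceride lipase, was at 27.4, 21.5 and 27.7 and then 111, 123 and 67.4 (log2 fold change 1.90, SE 0.36, adjusted p = 0.00153), and its contralateral means were 44.8 at 2 days and 95.4 at 30 days. Gsn, the actin-severing gelsolin, was at 81.7, 87.1 and 82.4 and then 345, 262 and 306 (log2 fold change 1.84, SE 0.30, adjusted p = 4.61e-04). Myoc, the secreted myocilin, was at 5.40, 4.81 and 6.04 and then 22.4, 20.5 and 25.4 (log2 fold change 1.89, SE 0.36, adjusted p = 0.00170), and also stood higher in the contralateral muscles at 30 days, with means of 8.40 at 2 days and 18.4 at 30 days. Ptpn3, a tyrosine phosphatase, was at 13.1, 6.40 and 9.90 and then 42.4, 32 and 32.1 (log2 fold change 1.79, SE 0.18, adjusted p = 2.00e-06). Tfrc, the transferrin receptor that brings in iron, was at 43.4, 26.7 and 16.2 and then 80.7, 82 and 116 (log2 fold change 1.74, SE 0.30, adjusted p = 6.71e-04), against contralateral means of 44.5 at 2 days and 40.3 at 30 days. Padi2, a protein arginine deiminase, Gng11, a G protein gamma subunit, and Ky, a Z-disc protein, rose by 1.81, 1.60 and 1.60. Cxcl14, a chemokine, was at 6.66, 7.95 and 6.86 and then 24.4, 18.8 and 23.3 (log2 fold change 1.5, SE 0.22, adjusted p = 1.79e-04). Groups that do not overlap were part of the rule that picked these genes. Their calls held whichever muscle was left out.

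Secreted growth regulators moved in both directions. Mstn, the growth inhibitor myostatin, was at 11.9, 7.76 and 9.77 and then 2.09, 2.61 and 1.61 (log2 fold change -1.79, SE 0.29, adjusted p = 4.59e-04), with contralateral means of 6.21 at 2 days and 4.44 at 30 days. All 30-day trained values were below all contralateral values of the same 6 rats. Igfbp5, a binding protein of insulin-like growth factors, was at 17.4, 11.3 and 17 and then 47.9, 57.8 and 55 (log2 fold change 1.77, SE 0.25, adjusted p = 1.32e-04). Here the 2-day trained muscles were below every contralateral muscle, and the 30-day trained muscles were among them. Of 20 cytokine genes 4 were lower (20%) and 1 higher (5%), that being Igfbp5, against 10 and 1 as deposited. Il1rl1, the interleukin-33 receptor, fell by 1.11 from 0.918, 2.27 and 1.87. Of 16 angiogenesis genes 3 were higher (18.8%) and 1 lower (6.25%), against 2 and 2 as deposited. Apln, the vessel peptide apelin, went from 0.958, 0.896 and 0.670 to 5.55, 3.71 and 3.26 (log2 fold change 1.47, SE 0.23, adjusted p = 3.83e-04), and Epas1, which codes for HIF-2 alpha, from 44, 28.8 and 29.7 to 80.2, 73.7 and 66.3 (log2 fold change 1.10, SE 0.16, adjusted p = 1.40e-04). Ccn1, a matricellular protein, was the lower one, from 27.1, 186 and 132 to 10.3, 13 and 7.25 (log2 fold change -3.02, SE 0.66, adjusted p = 0.00414).

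**Figure D5:**
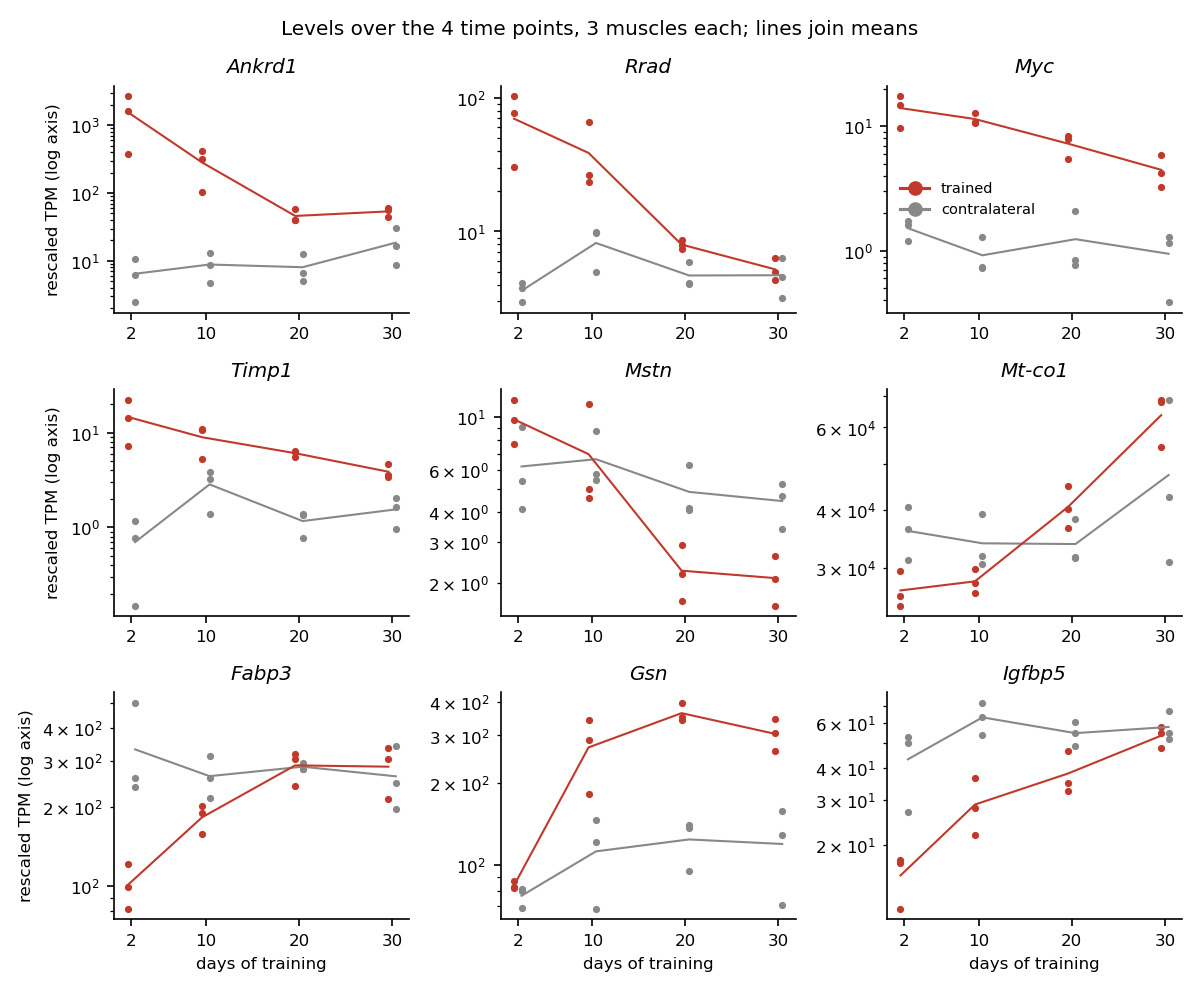
Rescaled TPM (log axes) of 9 genes at 2, 10, 20 and 30 days (x axis) in trained muscles (red) and contralateral muscles (grey), 1 point a muscle with lines through the means of 3. Ankrd1, Rrad, Myc and Timp1 start above the contralateral muscles and fall toward them, Fabp3 and Igfbp5 start below and rise to them, Mstn crosses below, and Mt-co1 and Gsn end above in the means.

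Few genes of the extracellular matrix passed the test. Of 19 collagens 1 was higher (5.26%, against 5.95% of all genes) and none lower, against 1 and 3 as deposited. The member called higher was Col4a4, of basement membrane, at 1.91, 1.30 and 1.41 and then 4.29, 3.45 and 4.09 (log2 fold change 0.96, SE 0.17, adjusted p = 8.39e-04). The fibrillar collagens Col1a1 (79.9, 144 and 108, then 72.4, 70.8 and 81.4) and Col3a1 (146, 229 and 209, then 142, 191 and 171) overlapped and were not called, with 95% intervals of the log2 fold change from -1.39 to 0.35 and from -0.92 to 0.53. Bgn, the proteoglycan biglycan, and Lox, which crosslinks collagen, were not called (-0.12 and -0.39). Of 32 crosslinking, matricellular and proteoglycan genes 4 were lower (12.5%) and 2 higher (6.25%), and as deposited 10 and 0. Vcan, the large proteoglycan versican, fell by 1.33 from 2.52, 5.65 and 4.54. Of 18 proteases and inhibitors, 2 were higher and 2 lower (11.1% each), and as deposited 0 and 6. Mmp2, a gelatinase, was at 8.36, 10.2 and 10.1 and then 21.4, 16.7 and 21 (log2 fold change 0.97, SE 0.25, adjusted p = 0.0118). Timp1, an inhibitor of such proteases, went from 7.25, 22.3 and 14.4 to 3.54, 3.42 and 4.64 (log2 fold change -1.57, SE 0.40, adjusted p = 0.0125) and lost its call without replicate 2 of the 2-day muscles (adjusted p = 0.112).

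Of 19 clock genes tested in the trained muscles 1 was higher (5.26%) and none lower, against 1 and 1 as deposited. Clock and Npas2, which pair with the clock factor Bmal1, were not called (0.26 and 0.59). The same 30 against 2 days comparison in the contralateral muscles called 16 transcripts (0.119%), 9 higher (0.0669%) and 7 lower (0.052%), and 1582 at an unadjusted p under 0.05. The count was 3 to 9 when any 1 of the 6 contralateral muscles was left out. None of the 16 was called in the trained muscles, where the fit held the 12 contralateral muscles as 1 group. A change between times among those muscles widens the spread of that fit and makes a call there less likely. For Dbp the SE was 0.92 in the trained comparison and 0.42 in the contralateral one. The 16 include the clock genes Arntl, Ciart, Dbp and Per2, named after their values were seen. The contralateral mean of Arntl was 3.09 at 2 days and 10.5 at 30 days, and that of Dbp 26.7 at 2 days and 2.14 at 30 days. In the trained muscles Dbp was at 8.72, 7.89 and 19.2 and then 4.68, 4.19 and 4.08. Per2 was there at 5.75, 4.54 and 4.50 and then 2.93, 2.45 and 2.88. Both lay apart but were not called (adjusted p = 0.455 and 0.220), while Arntl and Ciart overlapped. The within-rat difference changed by -1.40 for Arntl (adjusted p = 0.0325) and did not pass for Ciart, Dbp or Per2. Since 2 and 30 days used different rats, what differs between the rats or their days cannot be told apart from training in the trained comparison.

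Markers of other cell types were taken as measured beside these lists. Of 6 endothelial markers Cdh5, Emcn and Kdr were called higher, their list summed to 43.5 to 45.1 at 2 days and 51.6 to 71.8 at 30 days, and none of the 3 passed on the deposited scale. Without single muscles, Cdh5 lost its call without replicate 2 of the 2-day or replicate 1 of the 30-day muscles (adjusted p = 0.0509 and 0.0506). Emcn lost it without replicate 1 or 3 of the 2-day muscles (0.0969 and 0.139) or replicate 1 or 2 of the 30-day muscles (0.129 and 0.0958). Kdr kept it only without replicate 1 of the 2-day muscles, with adjusted p of 0.0503 to 0.237 in the other 5 fits. The pericyte marker Rgs5 and the adipocyte and endothelial fatty acid carrier Fabp4 were the 1 of 5 mural and the 1 of 4 adipocyte markers called higher. Rgs5 lost its call without replicate 2 or 3 of the 2-day muscles (adjusted p = 0.229 and 0.123) or replicate 1 or 3 of the 30-day muscles (0.157 and 0.104). Of 10 macrophage and 5 fibroblast markers none was called, and the macrophage list summed to 67.3 to 175 at 2 days and 80.8 to 104 at 30 days. The fibroblast list summed to 95.4 to 146 at 2 days and 174 to 196 at 30 days, without overlap, and in the contralateral muscles to 58 to 60.7 and then 86.4 to 119.8. The adipocyte list summed to 103 to 119.5 at 2 days and 165 to 215 at 30 days in the trained muscles, and to 106 to 145 and then 88.6 to 120.3 in the contralateral muscles. Of 5 Schwann cell markers 1 was called lower. As deposited 2 of the Schwann cell markers, 1 macrophage and 1 fibroblast marker were lower, and none of the markers of these other cell types was higher. In addition 1 T cell, 2 erythrocyte and 3 satellite cell markers passed the filter and none was called, and no neutrophil marker passed it. The part of these cells in the results was not tested.

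Whether the trained muscle itself differed from its own contralateral muscle by another amount at 30 than at 2 days was tested on the difference within each rat. That test called 135 of 13452 transcripts (1%), 54 higher (0.401%) and 81 lower (0.602%), and 2203 at an unadjusted p under 0.05. The test shares its trained values with the comparison above and is no second line of evidence. For Myh4-203 the difference changed by -5.53, adjusted p = 0.00872, for Ankrd1 by -5.85, adjusted p = 0.00253, for Tubb4b by -1.84, adjusted p = 0.00627, and for Mstn by -1.43, adjusted p = 0.0195. In the upward direction, Fabp3 changed by 1.78, adjusted p = 0.0360, Igfbp5 by 1.31, adjusted p = 0.00785 and Tfrc by 1.84, adjusted p = 0.0360. For G0s2 (0.82, adjusted p = 0.168) and Mt-co1 (0.92, adjusted p = 0.183) the difference did not pass the test. Several falls described above did not pass it either. These include Ankrd2 (-3.03, adjusted p = 0.0502), Pvalb (-1.77, adjusted p = 0.102), Hspb1 (-1.61, adjusted p = 0.098) and Otud1 (-1.63, adjusted p = 0.246). The test called 2 members of the mechanical stress list lower and none of the immediate early list. Of the nuclear genes of the respiratory chain it called 1 higher. The count depends on single rats, and was 17 to 26 without any one of 5 of the 6 rats and 418 without rat 1 of the 2-day group.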

How the data were processed

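Processing started from the transcript table that the authors deposited, with 20027 transcripts in 24 muscles. Its values are TPM as the authors made them (corrected for transcript length and brought to 1 total per muscle), read so from the values, since the table is titled as normalized counts. The submitters' processing notes name Partek, STAR, DESeq2 and the rat build rn6, and the libraries were enriched for poly(A) RNA. Read depth per muscle cannot be read from these values, so no counting interval is given. A gene table and the authors' comparison table, which holds fold changes and p-values, were not used here.

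Each muscle was divided by a median-of-ratios factor (1.05 to 1.11 at 2 days and 0.807 to 0.915 at 30 days in trained muscle). Transcripts of at least 1 in at least 3 muscles were kept and tested as log2(value + 1) with limma 3.58.1 in R 4.3.3, Benjamini-Hochberg threshold 0.05, two-sided. The fit held all 24 muscles as 5 groups, with the 12 contralateral muscles as 1 control, so that these and the 10-day and 20-day muscles served only to estimate the spread. The contralateral comparison came from a fit of 8 groups (side by time), and the change of the trained minus contralateral difference on the differences within each rat. An exact permutation test of 3 against 3 cannot go below p = 0.1. No pair among 276 pairs of muscles held identical values. Gene lists use 1 transcript a gene, the most abundant.

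Named were the 12 called genes of largest fall and the 12 of largest rise with a group mean of at least 20 and groups that do not overlap, up to 4 called members of largest fold in each list, and a fixed set (myosin heavy chains, Myh7, Myc, Ankrd1, Atf3, Amd1, Bgn, Col1a1, Col3a1, Ehd4, Lox, Hmox1, Max, Usf1, Tcf3, Jund, Mef2c, Nfatc3, Clock, Npas2, Pygm, Phkg1, Otud1 and the mitochondrial mRNAs). Other members named with a list were chosen after their values were seen. Members and lists were chosen with earlier results of these data known. Scaling, pseudocount, filters, groups fitted, replicate block, trend, sums per gene and leaving out single muscles were tried as alternatives. The test was checked on simulated data. Python 3.11.15, pandas 2.3.3, numpy 2.4.6 and matplotlib 3.10.9 were used for lists and plots. A few genes that these rules name are not reported here.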

Additional observations from a re-analysis of the deposited data

Results flagged for a closer look

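The difference between the trained and the contralateral muscle of the same rat changed between 2 and 30 days for 135 transcripts (limma on the differences within each rat, 3 rats at each time). The values that follow are the change of that difference on the log2 scale, at 30 days minus 2 days, for the named transcripts past the threshold. Among structural and mechanical stress transcripts it was -5.53 for Myh4-203, -5.52 for Myh4-204, -5.85 for Ankrd1, -3.46 for Tubb6 and -1.84 for Tubb4b. It was -3.75 for RGD1564664, -3.63 for Rrad and -2.63 for Pvr. Of the secreted and matrix genes, Mstn was at -1.43, Timp1 at -2.18, Vcan-202 at -1.43 and the receptor Il1rl1-202 at -1.18. Psmd11-202, the proteasome subunit, was at -2.12 and Atf4 at -0.83. The sodium pump subunit Atp1b2 was at -1.30. The division genes Cdk1 and Top2a-202 were at -1.46 and -1.18.

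In the other direction, metabolic genes held 1.17 for Perm1, 1.23 for Ckmt2, 1.10 for Mcee, 1.78 for Fabp3 and 2.39 for Cox7a1. Epas1-203 was at 1.22, Cxcl14 at 0.93, Tfrc at 1.84 and Igfbp5 at 1.31. Ptpn3-202 was at 1.70 and Padi2 at 1.63. The number of transcripts past the threshold was 17 to 26 without any 1 of 5 of the rats, and 418 without the rat of replicate 1 at 2 days. Each group held 3 muscles, too few to test a single muscle against its group.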

How the results depend on the processing

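The 1533 transcripts called between 30 and 2 days became 3031 with values as deposited (236 higher and 2795 lower), 2964 with values as deposited and pseudocount 0.1, 676 at an adjusted p under 0.01, 755 with the 12 trained muscles only and 230 with the 6 compared muscles only. They were 614 to 1933 with 1 trained muscle left out. Upper-quartile scaling (1584), factors without mitochondrial and the 10 most abundant transcripts (1530), pseudocount 0.1 (1404), no filter (1581), a mean of at least 10 (1083), 8 groups (1547), sums per gene (1677) and an intensity trend (1573) kept the count within 1.5 times, as did leaving out contralateral replicate 1 at 30 days (1571). That last setting and the deposited values with pseudocount 0.1 were chosen after seeing the data. The contralateral count of 16 was 5 as deposited and 3 to 9 with 1 muscle left out. The 135 of the trained minus contralateral difference were 122 as deposited and 17 to 418 with 1 rat left out. Summed over the gene lists, 141 members higher and 126 lower became 61 and 283 as deposited. Of 126 called named transcripts, 48 held their call in every alternative run, and none changed sign. The cause of these shifts was not tested beyond what each setting removes. The values do not give the read depth, so what it limits was not assessed.

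With the replicate number as a replicate block the count was 694. The numbers do not pair the rats of 2 and 30 days, which were different animals, and deviations of same-numbered muscles correlated at 0.047, 0.0596 and -0.0357. Same-numbered muscles were not always the best match.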

Other observations

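Beyond clock genes, the 16 transcripts called by limma between 30 and 2 days in the contralateral muscles included genes of protein turnover and RNA binding, named after their values were seen. Fbxo32, a ubiquitin ligase of muscle wasting, had contralateral means of 17.9 at 2 days and 69.6 at 30 days (log2 fold change 1.87, adjusted p = 0.0239). Rbm3, a cold-induced RNA-binding protein, had 10.6 at 2 days and 4.32 at 30 days (log2 fold change -1.13, adjusted p = 0.0469). In the trained muscles the log2 fold changes of Fbxo32 and Rbm3 were 1.43 and -0.60, and neither was called. The trained fit pools the contralateral muscles of all times, which widens its spread for transcripts that change among them. The SE of Fbxo32 and Rbm3 was 0.57 and 0.32 there, against 0.31 and 0.22 in the contralateral comparison.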
